A study of Mus musculus with 8 samples.

Results

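The genes described here are 31 genes of cholesterol synthesis and sterol handling, chosen by name for their roles, out of 31053 rows of the deposited count tables. They comprise 7 genes of the mevalonate steps, 4 of the squalene and lanosterol steps and 7 of the steps after lanosterol, which together are 18 biosynthesis enzymes. The other 13 are 5 genes of the SREBP system, 3 of sterol transport and efflux, 3 oxysterol enzymes and 2 liver X receptors. All 31 symbols were found in the tables.

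Cells make cholesterol from acetyl-CoA through mevalonate, farnesyl diphosphate, squalene and lanosterol. When membrane sterol is low, the transcription factor SREBP2 (Srebf2) is escorted to the Golgi by Scap, is cut there and turns on the synthesis genes, while the Insig proteins hold Scap back when sterol is plentiful. Oxysterols, which are oxidised cholesterols, activate the liver X receptors, which turn on the efflux pumps Abca1 and Abcg1. In the gut, stromal cells also make oxysterols that guide cells carrying the receptor Gpr183.

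Single-cell 3′ RNA libraries were made from colonic lamina propria cells of C57BL/6 mice, aged 10 to 12 weeks and housed pathogen-free, after a magnetic CD4 T cell isolation. Wildtype and mutant mice were each studied untreated and after DSS, with 2 libraries in each of the 4 groups. The mutant mice carry a knock-in allele that changes a serine to alanine. DSS, dextran sulfate sodium, is a detergent-like polymer that injures the colon lining. Treated mice drank 2% DSS for 7 days and then water for 3 days, and were studied on day 10. Each library carries its own animal number, and numbers that neighbour each other across genotypes share a treatment. The labels do not say what such numbers mark, so treatment cannot be told apart from it. P-values for treatment and genotype rest on the spread between the 2 mice of a group, estimated jointly over all 4 groups. This holds also where wildtype mice alone are compared. P-values between cell types rest on the spread left once the library is taken as a block. Macrophages and fibroblasts were present although the preparation selected for CD4 T cells, so their numbers follow the isolation as well as the tissue.

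Promoter sequences of the members the results turn on are given first, because synthesis and efflux genes are known to be switched by different factors. They are RefSeq sequences on GRCm38.p6, each from 250 bases before to 50 bases after the annotated start and written 5′ to 3′ on the gene's strand. Capitals mark matches, on either strand, to the core of the sterol response element (TCACNCCAC), to the CCAAT box (CCAAT) and to a direct repeat of the liver X receptor type, GGTNA and GGTCA on 1 strand, with 5 bases of any kind between them.
Hmgcs1 promoter, chr13:119690101-119690400, plus strand: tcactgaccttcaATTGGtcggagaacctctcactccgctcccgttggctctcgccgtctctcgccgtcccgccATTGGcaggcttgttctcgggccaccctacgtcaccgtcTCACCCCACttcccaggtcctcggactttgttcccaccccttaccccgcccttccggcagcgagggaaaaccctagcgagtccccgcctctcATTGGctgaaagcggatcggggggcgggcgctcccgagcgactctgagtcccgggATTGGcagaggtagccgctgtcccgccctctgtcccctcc
Idi1 promoter, chr13:8885356-8885655, plus strand: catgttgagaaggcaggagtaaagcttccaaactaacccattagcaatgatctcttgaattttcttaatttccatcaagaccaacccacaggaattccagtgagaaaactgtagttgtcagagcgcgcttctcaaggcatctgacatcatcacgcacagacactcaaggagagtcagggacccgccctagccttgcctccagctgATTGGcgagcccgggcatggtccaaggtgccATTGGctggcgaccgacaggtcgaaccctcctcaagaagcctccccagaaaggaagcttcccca
Cyp51 promoter, chr5:4104648-4104947, minus strand: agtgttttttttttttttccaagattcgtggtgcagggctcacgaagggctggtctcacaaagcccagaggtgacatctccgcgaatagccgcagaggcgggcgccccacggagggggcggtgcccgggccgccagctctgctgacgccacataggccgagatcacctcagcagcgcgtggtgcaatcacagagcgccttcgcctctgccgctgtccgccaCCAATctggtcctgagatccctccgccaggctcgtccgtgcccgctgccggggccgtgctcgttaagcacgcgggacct
Abca1 promoter, chr4:53159846-53160145, minus strand: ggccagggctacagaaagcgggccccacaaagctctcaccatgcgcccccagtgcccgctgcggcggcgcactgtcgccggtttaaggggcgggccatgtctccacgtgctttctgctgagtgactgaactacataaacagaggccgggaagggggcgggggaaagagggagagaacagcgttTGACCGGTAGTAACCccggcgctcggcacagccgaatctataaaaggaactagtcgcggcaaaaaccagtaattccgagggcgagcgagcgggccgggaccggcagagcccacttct

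Of the 31 members, 25 had a promoter in the RefSeq table, which holds 27025 genes. The sterol response core matched 1 of these 25, Hmgcs1, and 1.44% of all genes with a promoter. The CCAAT box matched 19 of 25 members and 41.06% of all genes, with 4 matches in Hmgcs1, 2 in Idi1 and 1 in Cyp51. The direct repeat matched 2 of 25 members, Srebf1 and Abca1, and 0.23% of all genes; its letters were chosen after the sequences had been seen. A match describes these letters only and is no measure of binding.

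Total counts ranged from 34497509 to 46960005 UMIs (unique molecular identifiers) per library, over 10563 to 16133 barcodes. The authors' cell list held 2749 to 4725 cells per library, and at most 9 of its barcodes were shared between any pair of libraries. Clusters were made without the 31 members, so that these genes did not define the cell types. Levels are given as CPM, the UMIs of a gene per 1e6 UMIs of the population in that library; they set 1 gene against itself across cells, not 1 gene against another. The summed counts do not tell fewer expressing cells from less RNA per cell. CD4 T cells were 1781 to 3752 listed cells per library, with 6 of 6 T cell markers detected and their sum at 2578 to 3716 CPM. Th17-like cells were 1 cluster, 3564 cells in all (187 to 993 per library), led by Il17a, Cxcl3 and Il17f. All 8 Th17 markers had UMIs in it, and their sum was 1950 to 5886 CPM, against 217 to 797 CPM in the other CD4 T cells. Macrophage-like cells (11217) and fibroblast-like cells (10154) came from clusters of all barcodes, and their marker sums were 12661 to 21321 CPM and 13753 to 24374 CPM. The same sums were 81.6 to 349 CPM and 9.37 to 44.4 CPM in CD4 T cells. The clusters were named from these same marker lists, so the sums are no separate evidence for the names.

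The summed synthesis genes were detected in every cell type that all 8 libraries held. The efflux pump Abca1 and the receptor Nr1h3 stood out in macrophage-like and endothelial-like cells, and the 3 oxysterol enzymes in fibroblast-like and muscle or pericyte-like cells. In the clusters of all barcodes, the summed level of the 18 enzymes was 539 ± 48.4 CPM in dendritic cell-like and 534 ± 88.0 CPM in proliferating-like cells (SD, n = 8 libraries, as for all means here). It was 505 ± 194 CPM in fibroblast-like, 415 ± 43.9 CPM in macrophage-like and 387 ± 61.4 CPM in Th17-like cells, ranges that overlap. The Th17-like cells of this clustering were 14820 barcodes, a wider set than the 3564 listed cells. Naive or memory T-like cells had 282 ± 27.0 CPM and plasma cell-like cells 222 ± 35.6 CPM. The plasma cell-like cluster was led by immunoglobulin genes, and CPM is a share of a type's own UMIs. Median UMIs per cell were 1805 and 8080 in these 2 types, so the order by CPM is not an order by UMIs per cell. The highest naive or memory T-like library, at 310 CPM, lay below the lowest library of the dendritic cell-like type, at 470 CPM. The map of levels by cell type shows these differences gene by gene.

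**Figure D1:**
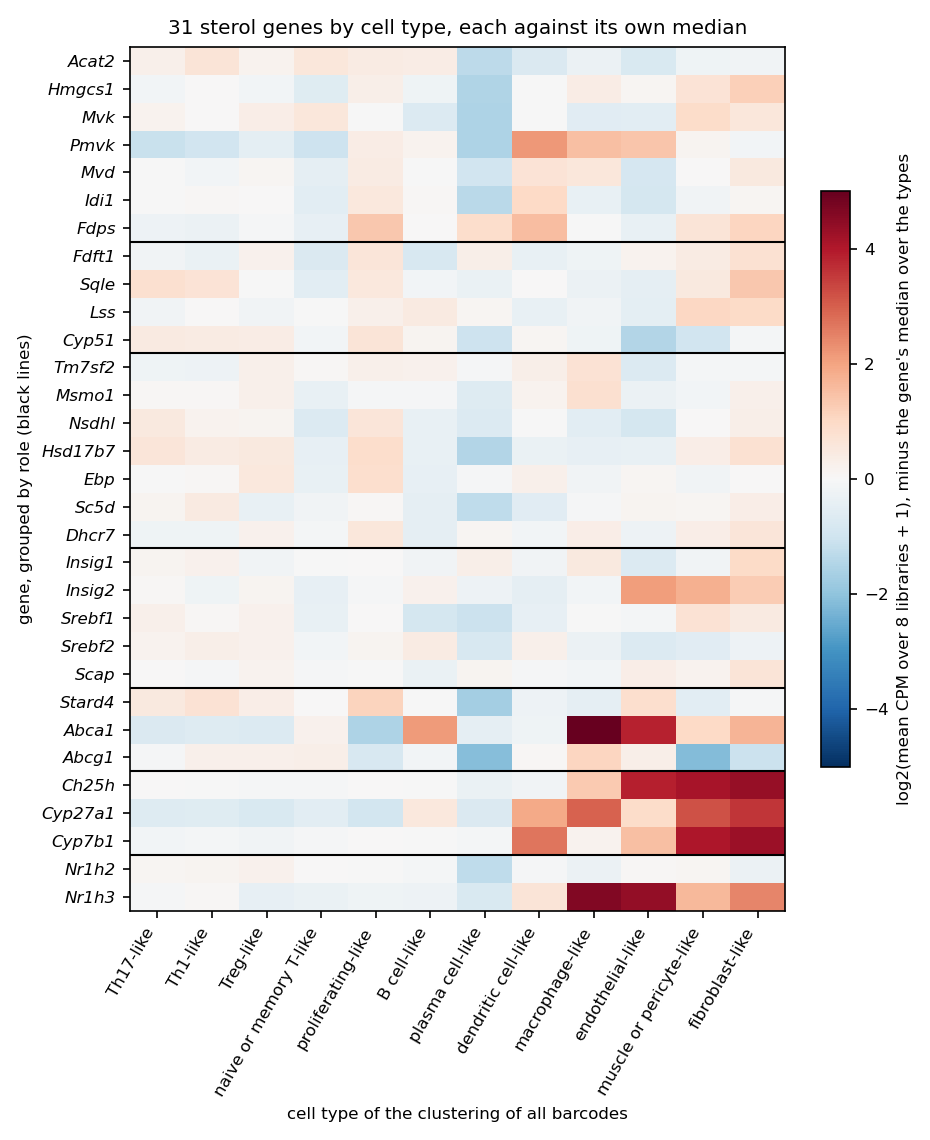
Rows are the 31 genes in order of role and columns are 12 cell types found in all 8 libraries; colour is log2(mean CPM + 1) minus the gene's own median over the types, so rows cannot be compared for level. Abca1 and Nr1h3 stand out in macrophage-like and endothelial-like cells, and Ch25h, Cyp27a1 and Cyp7b1 in fibroblast-like and muscle or pericyte-like cells.

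Within CD4 T cells, the Th17-like cells had more Sqle and less Pmvk and Fdps than the other T cells of the same libraries. Of 27 members tested, 5 were higher and 2 lower in Th17-like cells, against 32.7% of all 10513 genes called, 15.6% higher and 17% lower. Called means an adjusted p under 0.05 in edgeR's quasi-likelihood test with Benjamini-Hochberg adjustment over all genes tested. Both populations are drawn by clustering the same cells, so these p-values describe a difference in level between types. The other T cells pool Th1-like, Treg-like, naive or memory T-like, proliferating-like and unnamed clusters. An unnamed cluster of 1504 cells among them scored highest for the Th17 markers. Its mean log2 ratio to the other T cell clusters was 0.53, below the 1 needed for a name. Proliferating markers summed to 129 to 244 CPM in Th17-like cells and 501 to 752 CPM in the others. The part of this makeup in the differences was not tested. Ch25h, Cyp27a1, Cyp7b1 and Tm7sf2 were too low to be tested.

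Sqle, squalene epoxidase and a controlling step of the sterol branch, ranged from 31.3 to 54.9 CPM in Th17-like cells (median 41.7) and from 17.0 to 31.1 CPM in the others (median 25.3). It was higher in Th17-like cells in 8 of 8 libraries, and the ranges did not overlap (log2 difference 0.80 ± 0.09, SE, edgeR adjusted p 4.07e-08). Pmvk, phosphomevalonate kinase, was lower in Th17-like cells in 8 of 8 libraries, at 9.21 to 22.3 against 18.4 to 27.9 CPM (log2 difference -0.76 ± 0.14, edgeR adjusted p 7.74e-05). Fdps, which makes farnesyl diphosphate at the branch point to sterols and prenyl groups, was also lower in all 8, at 7.28 to 30.4 against 14.0 to 34.1 CPM, with overlapping ranges (log2 difference -0.52 ± 0.14, edgeR adjusted p 0.00364; the call was lost without the library as a block, adjusted p 0.24). The remaining called enzymes act on sterols after lanosterol. Nsdhl, a dehydrogenase of the demethylation steps, was higher in 7 of 8 libraries (log2 difference 0.65 ± 0.19, edgeR adjusted p 0.00706), and Hsd17b7, its partner reductase, differed by 0.47 ± 0.14 (edgeR adjusted p 0.00819). In the SREBP system, Srebf1, which encodes SREBP1, was higher by 0.42 ± 0.11 on the log2 scale (edgeR adjusted p 0.00398) and Insig2 by 0.41 ± 0.15 (edgeR adjusted p 0.0381), a call lost under 7 of 13 alternatives. Of the 17 enzymes tested, 8 had a higher and 9 a lower level in Th17-like cells, with a median log2 difference within 0.01 of that over all genes.

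**Figure D2:**
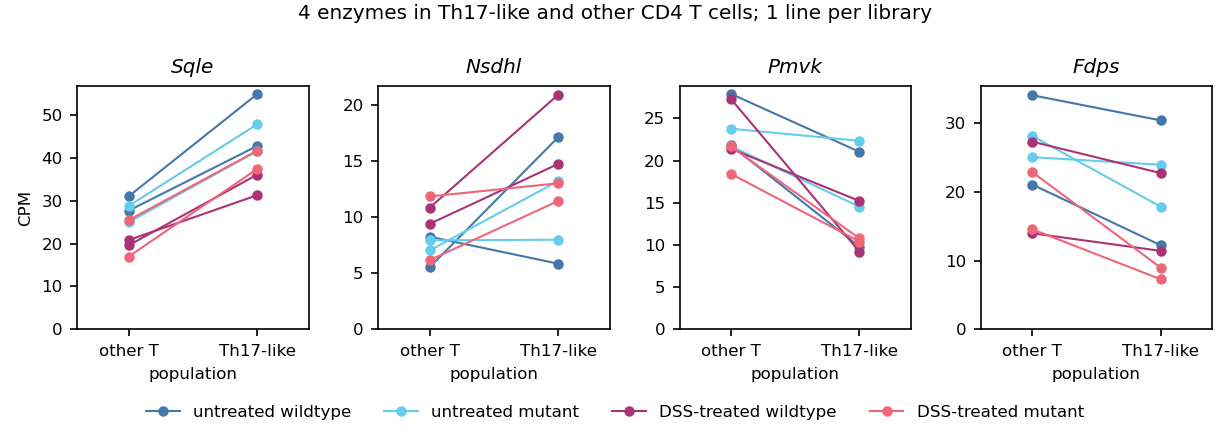
Each line joins the CPM of 1 library in the other CD4 T cells and in the Th17-like cells, coloured by group, for 4 enzymes. Sqle was higher and Pmvk and Fdps lower in the Th17-like cells of all 8 libraries, and Nsdhl was higher in 7.

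Among the 31 related genes fixed as a list, 26 were tested in this comparison, with 5 higher and 6 lower in Th17-like cells. Gpr183, the receptor for oxysterols made by Ch25h and Cyp7b1, was at 277 to 376 CPM in Th17-like and 146 to 192 CPM in other T cells, with no overlap (log2 difference 0.90 ± 0.06, edgeR adjusted p 7.2e-14). Of 9 genes of the fatty acid arm tested, 3 were lower and none higher, where 32.7% of all genes were called. Elovl6, a fatty acid elongase, was at 8.32 to 26.9 against 35.8 to 63.6 CPM (log2 difference -1.75 ± 0.12, edgeR adjusted p 2.85e-13), and Scd2, a desaturase, differed by -1.06 ± 0.14 (edgeR adjusted p 5.69e-07). Npc2, a lysosomal sterol carrier, was lower by -0.36 ± 0.06 on the log2 scale (edgeR adjusted p 1.32e-05).

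Macrophage-like cells had more RNA of both efflux pumps than CD4 T cells, and less of the sterol carrier Stard4. Of 30 members tested against CD4 T cells, 12 were higher and 10 lower, where 79.1% of 12120 genes were called, 39.5% higher and 39.7% lower. Abca1, which exports cholesterol to apolipoproteins, was at 349 to 1167 CPM in macrophage-like and 3.02 to 25.6 CPM in CD4 T cells (log2 difference 6.31 ± 0.24, edgeR adjusted p 1.49e-11). Nr1h3, the liver X receptor alpha, was at 44.3 to 67.9 CPM in macrophage-like cells (log2 difference 5.96 ± 0.22, edgeR adjusted p 1.35e-11), whereas its partner Nr1h2, liver X receptor beta, was slightly lower than in T cells (-0.17 ± 0.07, edgeR adjusted p 0.0416), a call also lost under 7 of 13 alternatives. Cyp27a1, the mitochondrial sterol hydroxylase, was at 7.86 to 19.2 CPM (log2 difference 5.99 ± 0.22, edgeR adjusted p 1.12e-11). Abcg1, the second efflux pump, was at 51.4 to 93.5 CPM (log2 difference 1.33 ± 0.14, edgeR adjusted p 1.06e-06). Stard4, the third gene of the transport and efflux list, was lower, at 10.9 to 17.7 CPM against 28.7 to 39.4 CPM (log2 difference -0.91 ± 0.09, edgeR adjusted p 3.85e-07). The 18 enzymes split, with 6 higher and 7 lower: Pmvk was higher (2.24 ± 0.11, edgeR adjusted p 2.9e-10) and Sqle lower (-0.59 ± 0.09, edgeR adjusted p 2.71e-05). Of the related genes, 16 of 27 tested were higher and 7 lower, including the phospholipid transfer protein gene Pltp (log2 difference 6.48 ± 0.11, edgeR adjusted p 1.22e-13), a known liver X receptor target.

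Fibroblast-like cells had more RNA of all 3 oxysterol enzymes than CD4 T cells. Of 31 members tested against CD4 T cells, 15 were higher and 7 lower, where 83.9% of 13858 genes were called, 45.6% higher and 38.3% lower. Cyp7b1, which hydroxylates oxysterols, was at 7.82 to 37.0 CPM and had few or no UMIs in T cells, where it was at 0 to 0.277 CPM over all CD4 T cells. Ch25h, which adds a hydroxyl group to the side chain of cholesterol, was at 13.8 to 54.6 CPM in fibroblast-like cells (log2 difference 6.62 ± 0.23, edgeR adjusted p 9.85e-12), and Cyp27a1 was at 19.1 to 27.1 CPM (6.44 ± 0.20, edgeR adjusted p 4e-12). Nr1h3 (3.40 ± 0.24, edgeR adjusted p 1.24e-08) and Abca1 (2.72 ± 0.20, edgeR adjusted p 2.69e-08) were also higher than in T cells, while Abcg1 was lower (-1.16 ± 0.09, edgeR adjusted p 3.64e-08). Hmgcs1, which makes the precursor of mevalonate, was higher (1.11 ± 0.12, edgeR adjusted p 1.14e-06), as were Insig1 (0.73 ± 0.10, edgeR adjusted p 1.91e-05) and Insig2 (1.2 ± 0.13, edgeR adjusted p 1.75e-06). Cyp51, the lanosterol demethylase, was lower (-0.71 ± 0.09, edgeR adjusted p 8.93e-06).

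After DSS, CD4 T cells had less RNA of several cholesterol enzymes. With both genotypes averaged, 3 of 28 members tested were higher and 6 lower, where 18.4% of 11041 genes were called, 9.15% higher and 9.26% lower. DESeq2 called 4 of 27 members and 11.9% of all genes. All 6 members that fell are enzymes or Insig1, and 17 of the 18 enzymes had a negative log2 fold change, with a median of -0.29 against 0.01 over all genes. The summed enzymes were at 427, 508, 458 and 455 CPM in the untreated libraries, in the order wildtype replicates 1 and 2 and mutant replicates 1 and 2, which all lists of 4 values follow. After DSS they were at 406, 353, 404 and 315 CPM, all below the lowest untreated library. In wildtype mice alone, with 2 libraries against 2, none of the 28 members was called (0.199% of genes were). An unadjusted p under 0.05 was found for 9 of the 28, against 18.6% of all genes. DESeq2 called 2 of 25 members, and 197 genes in all. The 3 with the smallest p there were Cyp51 (-0.74 ± 0.23, edgeR adjusted p 0.144), Abca1 (1.66 ± 0.54, edgeR adjusted p 0.155) and Sqle (-0.63 ± 0.21, edgeR adjusted p 0.171), whose values per library follow.

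Cyp51, whose product is the first sterol after lanosterol, was at 101, 128, 112.01 and 114 CPM untreated and 81.1, 62.0, 84.3 and 49.9 CPM after DSS. The groups did not overlap, and the log2 fold change was -0.79 ± 0.16 (edgeR adjusted p 0.0129). Sqle was at 29.7, 34.2, 30.8 and 28.8 CPM untreated and 22.5, 20.8, 30.5 and 18.3 CPM after DSS, where mutant replicate 1 lay within the untreated range (-0.51 ± 0.15, edgeR adjusted p 0.0413). Hmgcs1 was at 40.9, 45.9, 39.5 and 43.6 CPM untreated and 35.7, 39.4, 35.5 and 33.9 CPM after DSS, a difference of -0.31 ± 0.09 with barely separate ranges (edgeR adjusted p 0.0344). The other 2 enzymes that fell act late in the pathway: Msmo1, the methylsterol oxidase, and Dhcr7, the final reductase of 1 branch. Msmo1 was at 24.4, 29.1, 28 and 30.6 CPM untreated and 23.5, 19.0, 26.2 and 20.3 CPM after DSS (-0.41 ± 0.13, edgeR adjusted p 0.0476). Dhcr7 was at 6.26, 9.46, 11.3 and 9.20 CPM untreated and 4.97, 6.89, 5.41 and 5.90 CPM after DSS (-0.71 ± 0.19, edgeR adjusted p 0.029). For both, 1 treated library lay above the lowest untreated one. Insig1, itself an SREBP target, was at 45.3, 47.8, 51.5 and 55.5 CPM untreated and 38.4, 38.2, 43.5 and 31.2 CPM after DSS (-0.48 ± 0.11, edgeR adjusted p 0.0177).

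The 3 members that rose, of 28 tested, were Scap, Nr1h2 and Abca1, which is described further on. This count is near the 9.15% of all genes called higher. Abcg1, Nr1h3 and Srebf1 were not called, and Insig1 fell. Scap, the sterol sensor, was at 18.1, 14.7, 13.9 and 13.3 CPM untreated and 20.5, 21.5, 23.2 and 20.05 CPM after DSS, with every treated library higher (log2 fold change 0.43 ± 0.11, edgeR adjusted p 0.0275). Nr1h2 was at 56.7, 47.0, 51.6 and 52.3 CPM untreated and 62.0, 72.4, 73.9 and 65.7 CPM after DSS (0.32 ± 0.09, edgeR adjusted p 0.0377), again without overlap. Srebf2 itself was at 92.9 to 107 CPM untreated and 85.5 to 111.6 CPM after DSS, and its log2 difference of -0.09 ± 0.10 was not called (edgeR adjusted p 0.531). Of 26 related genes tested, 2 rose and 2 fell: Gramd1a, a carrier of plasma membrane sterol, by 0.41 ± 0.08 (edgeR adjusted p 0.0109), Acly, which supplies cytosolic acetyl-CoA, by 0.32 ± 0.08 (edgeR adjusted p 0.0245), Lpin1, a phosphatidate phosphatase, by -0.45 ± 0.11 (edgeR adjusted p 0.0253), and Pltp by -1.2 ± 0.27 (edgeR adjusted p 0.0176).

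The count of 9 in CD4 T cells rested on several libraries. Leaving out replicate 2 of the untreated wildtype or of the untreated mutant group left 0 calls. Leaving out replicate 2 of the treated wildtype group left 1, replicate 1 of the untreated mutant group 3, and replicate 2 of the treated mutant group or replicate 1 of the untreated wildtype group 5. The share of all genes called fell as well, to between 1.85% and 10.8% in these 6 fits. The call of Hmgcs1 was lost under 10 of 14 alternatives, including each library left out and DESeq2, those of Sqle, Msmo1 and Dhcr7 under 8, and that of Cyp51 under 3. The makeup of the T cells also differed: Treg-like cells numbered 350, 337, 250 and 246 of 2142, 2120, 1781 and 2134 cells untreated, and 905, 805, 667 and 1109 of 3133, 2887, 2812 and 3752 after DSS. Within the Treg-like cells alone Cyp51 was at 97.3, 142, 85.9 and 115 CPM untreated and 75.4, 65.9, 77.2 and 50.8 CPM after DSS, without overlap. In the Th17-like cells its treated and untreated libraries overlapped. The part of the cell makeup in the CD4 T cell results was not tested. Over all CD4 T cells the T cell markers summed to 3176 to 3716 CPM untreated and 2578 to 3136 CPM after DSS, Treg markers to 1588 to 1869 and 2052 to 2163 CPM, dendritic cell markers to 118 to 141 and 149 to 240 CPM, and neutrophil markers to 0.458 to 1.28 and 3.49 to 11.9 CPM. Stress markers were at 1636, 2416, 5825 and 4307 CPM untreated and 2328, 1806, 2105 and 2048 CPM after DSS. Their part in these results was not tested. A cluster led by Svs5 and heat-shock genes held 73, 180, 317 and 219 cells untreated and 74, 34, 43 and 53 after DSS; without it 6 members were called, namely Cyp51, Insig1, Dhcr7, Abca1, Scap and Nr1h2, where 16.9% of all genes were called. The log2 fold changes of the 3 enzymes that lost their call moved little, to -0.52 ± 0.16 for Sqle, -0.42 ± 0.13 for Msmo1 and -0.27 ± 0.08 for Hmgcs1, with edgeR adjusted p of 0.0538, 0.0524 and 0.0527.

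**Figure D3:**
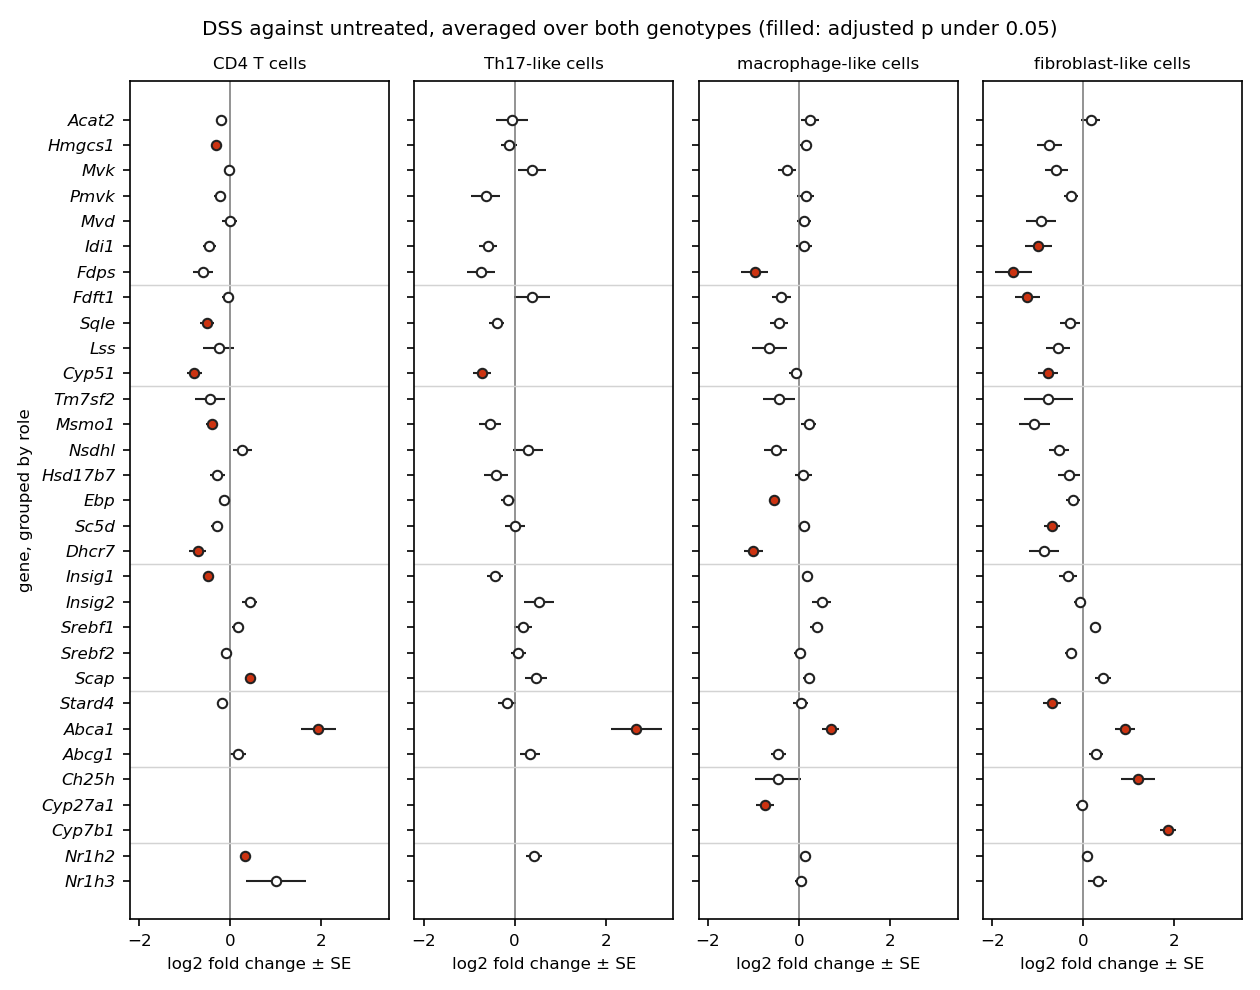
Points are log2 fold changes after DSS, averaged over both genotypes, and bars are standard errors from edgeR; genes are in order of role and filled points have an adjusted p under 0.05. Most enzymes lie left of 0 in CD4 T cells and fibroblast-like cells, and Abca1 lies right of 0 in all 4 populations.

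In the Th17-like cells alone, 1 member rose and 1 fell of 23 tested after DSS, where 5.68% of 7239 genes were called, 2.65% higher and 3.03% lower. DESeq2 called 1 of 5 members and 6.82% of all genes. Cyp51 was at 82.0, 145, 121 and 116 CPM untreated and 89.1, 60.8, 84.3 and 41.6 CPM after DSS. Untreated wildtype replicate 1 lay within the treated range, and the log2 fold change was -0.72 ± 0.20 (edgeR adjusted p 0.0448). Idi1, the isomerase that makes the building block for farnesyl diphosphate, had a log2 fold change of -0.58 ± 0.20 that did not pass (edgeR adjusted p 0.0889). Over the 14 enzymes tested the median was -0.27, against 0.01 over all genes. Among 20 related genes tested, Gramd1a rose (0.50 ± 0.14, edgeR adjusted p 0.0453), a call lost under 9 of 13 alternatives, including each library left out and DESeq2. The member that rose was Abca1, described next. Of the calls of Abca1 and Cyp51, 0 were left when replicate 2 of either untreated genotype was dropped. Of the 2, 1 was left when replicate 1 of the untreated mutant group or replicate 2 of either treated genotype was dropped. In these 5 fits 1.13% to 4.19% of all genes were called. In wildtype mice alone no member was called in Th17-like cells (0.0829% of genes were), with 2 of 23 members against 10.4% of all genes at an unadjusted p under 0.05 and none called by DESeq2. The 3 with the smallest p were Sqle, at 42.8 and 54.9 CPM untreated and 31.3 and 36.1 CPM after DSS (-0.61 ± 0.25, edgeR adjusted p 0.415), Abca1 (1.6 ± 0.69, edgeR adjusted p 0.436) and Cyp51 (-0.57 ± 0.29, edgeR adjusted p 0.515). The 8 members too low to test there were Mvd, Lss, Tm7sf2, Dhcr7, Ch25h, Cyp27a1, Cyp7b1 and Nr1h3.

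Abca1 was called higher after DSS in all 4 populations, of which the Th17-like cells are a part of the CD4 T cells. In CD4 T cells it was at 5.94, 3.51, 4.21 and 3.02 CPM untreated and 6.6, 25.6, 17.7 and 17.6 CPM after DSS, with wildtype replicate 1 close to the untreated libraries (log2 fold change 1.93 ± 0.38, edgeR adjusted p 0.0117). In Th17-like cells it was at 8.56, 1.17, 0 and 1.32 CPM untreated, and 11.7, 22.8, 17.0 and 9.36 CPM after DSS (2.67 ± 0.56, edgeR adjusted p 0.0101). In macrophage-like cells it was at 606, 436, 349 and 416 CPM untreated and 645, 841, 617 and 1167 CPM after DSS (0.70 ± 0.19, edgeR adjusted p 0.0217). In fibroblast-like cells it was at 57.9, 44.1, 47.0 and 35.3 CPM untreated and 66.6, 83.8, 62.4 and 114 CPM after DSS (0.92 ± 0.22, edgeR adjusted p 0.0231). No treated library fell into the untreated range in any of the 4, although untreated wildtype replicate 1 was the highest untreated library in each and close to the lowest treated one. The call was lost without untreated wildtype replicate 2 in each population, and without other single libraries in some.

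The T cell values of Abca1 are small beside those of macrophages and are set here beside the macrophage markers found in the T cell barcodes. All 9 macrophage markers had UMIs in CD4 T cells, and their sum was 81.6 to 197 CPM in untreated and 113 to 349 CPM in treated libraries. Per 1000 UMIs of those markers, CD4 T cells held 30.2, 29.5, 27.4 and 37.0 Abca1 UMIs untreated and 58.6, 73.5, 72.4 and 155 after DSS. Macrophage-like cells held 34.9, 21.5, 16.4 and 21.4 untreated and 47.6, 63.8, 48.8 and 91.0 after DSS, so the ratio in CD4 T cells as a whole was 0.864 to 1.73 times that of the macrophage-like cells of the same library. The Th17-like cells among them held 7, 1, 0 and 2 Abca1 UMIs untreated and 19, 12, 38 and 9 after DSS, so their fold change rests on few UMIs. Their ratio was 0.671, 0.416, 0 and 0.743 times that of the macrophage-like cells of the same library untreated, and 1.55, 0.804, 1.26 and 0.728 times after DSS. In fibroblast-like cells the 9 macrophage markers summed to 980 to 1645 CPM untreated and 484 to 1021 CPM after DSS, above their sum in CD4 T cells. The part of macrophage RNA in the Abca1 results of T cells and fibroblast-like cells was not tested. Pltp fell in macrophage-like cells, from 324 to 394 CPM to 178 to 204 CPM. Over all CD4 T cells it fell from 3.77 to 5.67 CPM to 1.41 to 3.45 CPM, where the call was lost under 5 of 14 alternatives.

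**Figure D4:**
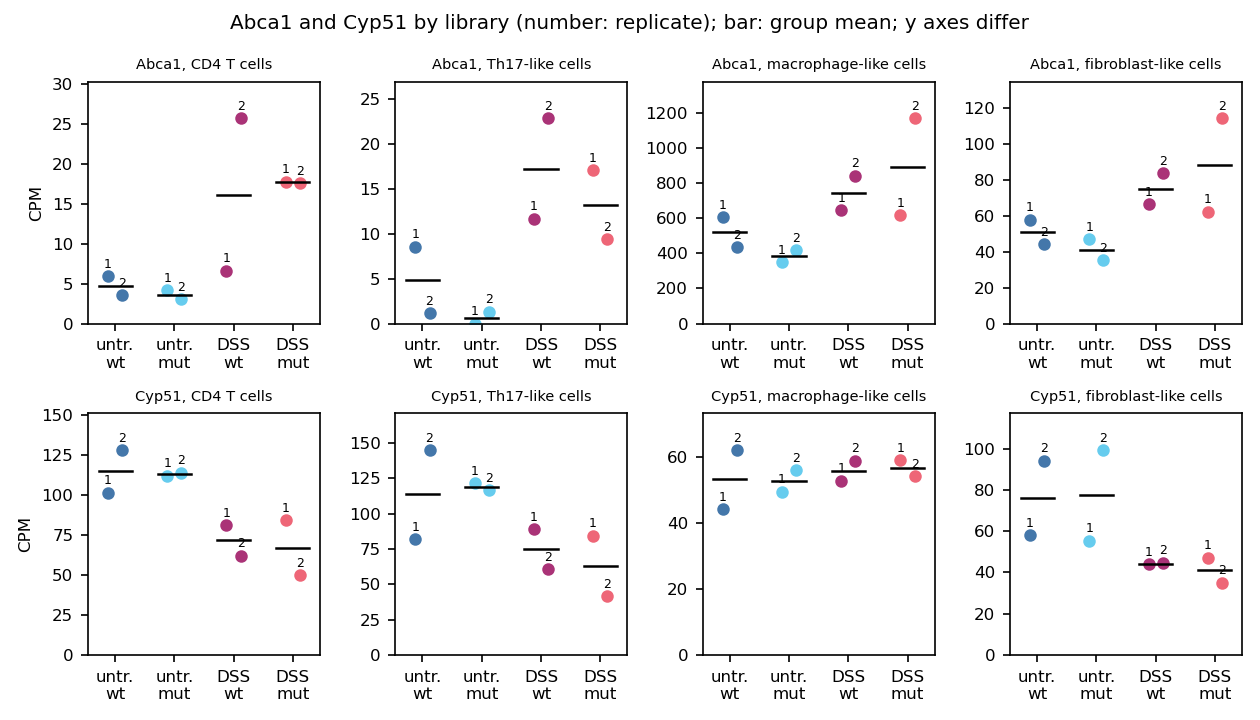
Each point is the CPM of 1 library, numbered by replicate, and each bar is the mean of the 2 libraries of a group; the upper row is Abca1, the lower row Cyp51, and the y axes differ. Abca1 was higher in treated libraries in each population, and Cyp51 was lower in CD4 T cells and fibroblast-like cells but between 44.3 and 62.2 CPM in every macrophage-like library.

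In macrophage-like cells 3 of the 18 enzymes fell after DSS, and 10 had a negative log2 fold change. Over all members, 1 of 30 tested was higher and 4 lower, where 24.5% of 10941 genes were called, 12.1% higher and 12.4% lower. DESeq2 called 5 of 28 members and 18.3% of all genes. The summed enzymes overlapped, at 337, 465, 395 and 408 CPM untreated and 409, 431, 395 and 477 CPM after DSS. Dhcr7 was at 7.39, 10.6, 14.3 and 10.4 CPM untreated and 6.01, 6.94, 5.67 and 5.04 CPM after DSS, without overlap (log2 fold change -1.0 ± 0.20, edgeR adjusted p 0.00666). Ebp, the sterol isomerase, was at 39.8, 43.0, 43.5 and 43.5 CPM untreated and 32.3, 27.8, 37.1 and 32.6 CPM after DSS (-0.55 ± 0.12, edgeR adjusted p 0.00824). Both calls held without each library in turn, and both were lost with only the cells on the authors' list (log2 fold change -0.62 for Dhcr7 and -0.44 for Ebp, edgeR adjusted p 0.155 and 0.115). Fdps was at 10.2, 31.4, 24.8 and 25.5 CPM untreated and 15.3, 11.2, 13.9 and 11.5 CPM after DSS, where untreated wildtype replicate 1 was the lowest of all 8 (-0.98 ± 0.30, edgeR adjusted p 0.0355). Cyp27a1 was at 17.4, 14.8, 18.9 and 19.2 CPM untreated and 13.8, 10.5, 14.5 and 7.86 CPM after DSS (-0.74 ± 0.20, edgeR adjusted p 0.0209).

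Abca1, Abcg1 and Pltp are given here as examples of known liver X receptor targets in macrophage-like cells, not as the full set. Abca1 rose. Abcg1 was at 84.4, 51.4, 78.2 and 93.5 CPM untreated and 71.2, 55.3, 60.2 and 63.1 CPM after DSS, with overlapping groups. It was not called (-0.45 ± 0.16, edgeR adjusted p 0.0599). Pltp fell from 341, 337, 394 and 324 CPM to 180, 204, 178 and 191 CPM (log2 fold change -1.05 ± 0.11, edgeR adjusted p 0.000471). Nr1h3 was not called (0.05 ± 0.12, edgeR adjusted p 0.814), at 44.3 to 59.7 CPM untreated and 56.1 to 67.9 CPM after DSS. Of 27 related genes tested, 4 rose and 3 fell. Fads1, a fatty acid desaturase, fell (-0.89 ± 0.12, edgeR adjusted p 0.00134), and Elovl5, an elongase (0.62 ± 0.12, edgeR adjusted p 0.00539), and Gramd1b, a sterol carrier between membranes (0.97 ± 0.20, edgeR adjusted p 0.00782), rose. In wildtype mice alone no member was called (0.631% of genes were), with 3 of 30 members against 19.3% of all genes at an unadjusted p under 0.05 and none called by DESeq2. These 3 were Ebp (-0.6 ± 0.16, edgeR adjusted p 0.0984), Nsdhl, at 4.54 and 7.16 CPM untreated and 4.01 and 2.69 CPM after DSS (-0.95 ± 0.38, edgeR adjusted p 0.205), and Scap, at 12.7 and 13.2 against 19.0 and 19.9 CPM (0.45 ± 0.18, edgeR adjusted p 0.212). Pltp was the related gene that passed (-0.96 ± 0.15, edgeR adjusted p 0.0207). Of the 5 calls averaged over genotypes, 2 were left when replicate 2 of the untreated wildtype, replicate 1 of the untreated mutant or replicate 2 of the treated wildtype group was dropped. Dropping replicate 2 of the untreated or of the treated mutant group left 3 of the 5. In these 5 fits 8.26% to 17.6% of all genes were called. In the 2715 macrophage-like cells on the authors' list 2 members were called, of which 1, Abca1, was among the 5, where 18.1% of all genes were called. In the cluster led by C1q genes alone 5 were called, of which 4 were among the 5, where 24.9% of all genes were called. Cyp27a1 lost its call there and Srebf1, which rose, gained one (log2 fold change 0.54 ± 0.15, edgeR adjusted p 0.0254). In that cluster Srebf1 was at 13.4, 13.0, 13.6 and 17.4 CPM untreated and 24.4, 21.1, 25.4 and 22.9 CPM after DSS. Marker lists moved with the treatment in these cells: macrophage markers summed to 17374 to 21321 CPM untreated and 12661 to 13559 CPM after DSS, T cell markers to 222 to 307 and 308 to 486 CPM, and Treg markers to 281 to 349 and 410 to 577 CPM. Stress markers were at 2495, 3663, 13025 and 8238 CPM untreated and 3398, 1937, 2092 and 2871 CPM after DSS, highest in the untreated mutant libraries. Their part in these results was not tested.

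In fibroblast-like cells 5 synthesis enzymes fell and 2 oxysterol enzymes rose after DSS. Of 31 members, all of them tested, 3 were higher and 6 lower, where 20.4% of 13603 genes were called, 10.8% higher and 9.65% lower. DESeq2 called 10 of 31 members and 13.1% of all genes. Of the 18 enzymes, 17 had a negative log2 fold change, with a median of -0.71 against 0.01 over all genes. Their sum was 441, 775, 476 and 845 CPM untreated and 417, 376, 395 and 319 CPM after DSS. Replicate 2 of each untreated genotype was far above replicate 1, and 16 of 18 enzymes were higher in replicate 2 in both, where 26.5% of all genes were. Over all 18 enzymes the median log2 ratio of replicate 2 to replicate 1 was 0.73 in wildtype and 0.79 in mutant. The p-values for DSS take the libraries as independent, so they may be too small for these enzymes. Replicate 1 of each untreated genotype lay closer to the treated libraries than replicate 2 did.

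The enzymes that fell run from the mevalonate steps to the late steps. Fdps was at 27.6, 81.7, 38.5 and 87.9 CPM untreated and 28.9, 16.2, 25.0 and 12.0 CPM after DSS, so that treated wildtype replicate 1 overlapped the untreated range (log2 fold change -1.53 ± 0.41, edgeR adjusted p 0.0319). Idi1 was at 29.9, 56.8, 29.2 and 69.9 CPM untreated and 25.3, 24.1, 22.3 and 17.9 CPM after DSS (-0.99 ± 0.29, edgeR adjusted p 0.0441). Fdft1, squalene synthase and the first step committed to sterols, was at 18.6, 35.8, 19.9 and 38.9 CPM untreated and 12.4, 12.3, 11.3 and 9.89 CPM after DSS, without overlap (-1.23 ± 0.27, edgeR adjusted p 0.0169). Cyp51 was at 57.9, 94.1, 55.5 and 99.4 CPM untreated and 43.9, 44.7, 47.1 and 35.0 CPM after DSS (-0.78 ± 0.22, edgeR adjusted p 0.0363). Sc5d, a sterol desaturase, was at 28.1, 39.4, 32.2 and 50.1 CPM untreated and 26.3, 19.5, 25.5 and 19.0 CPM after DSS, without overlap (-0.68 ± 0.18, edgeR adjusted p 0.0331). Stard4, a cytosolic carrier of cholesterol, was at 20.1, 31.8, 19.0 and 31.02 CPM untreated and 14.97, 13.5, 16.4 and 15.5 CPM after DSS (-0.69 ± 0.20, edgeR adjusted p 0.0425). Hmgcs1, at 75.2, 161, 80.9 and 168 CPM untreated, was between 59.3 and 75.1 CPM after DSS and was not called (-0.74 ± 0.28, edgeR adjusted p 0.0889).

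Of the 3 oxysterol enzymes, 2 rose. Cyp7b1 was at 10.3, 8.72, 7.82 and 11.5 CPM untreated and 28.9, 37.0, 30.4 and 33.1 CPM after DSS, with the groups far apart (log2 fold change 1.87 ± 0.17, edgeR adjusted p 0.000382). It was the member called in wildtype mice alone as well (1 of 31, where 3.25% of genes were called; 1.92 ± 0.24, edgeR adjusted p 0.00551). The call of the average held without each library in turn, and that in wildtype mice was lost when either untreated wildtype library or replicate 2 of the treated wildtype group was dropped, with adjusted p up to 0.0965 over its alternatives. The next members there, Stard4 (-0.82 ± 0.29, edgeR adjusted p 0.164) and Fdft1 (-1.06 ± 0.39, edgeR adjusted p 0.17), were not called. Ch25h was at 20.5, 13.8, 17.7 and 16.2 CPM untreated and 15.5, 54.6, 22.3 and 47.7 CPM after DSS. Treated wildtype replicate 1 lay within the untreated range, and the call was at the edge (1.21 ± 0.37, edgeR adjusted p 0.0493) and lost under 10 of 14 alternatives. Cyp27a1 was not called, at 21.3 to 27.1 CPM untreated and 19.1 to 23.7 CPM after DSS. Of 30 related genes tested, Acly (0.42 ± 0.10, edgeR adjusted p 0.0184) and Stard5, another sterol carrier (0.94 ± 0.22, edgeR adjusted p 0.0202), rose, and Pltp (-1.02 ± 0.24, edgeR adjusted p 0.0217) and the lysosomal lipase gene Lipa (-0.36 ± 0.11, edgeR adjusted p 0.0489) fell, the last a call lost under 10 of 14 alternatives.

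**Figure D5:**
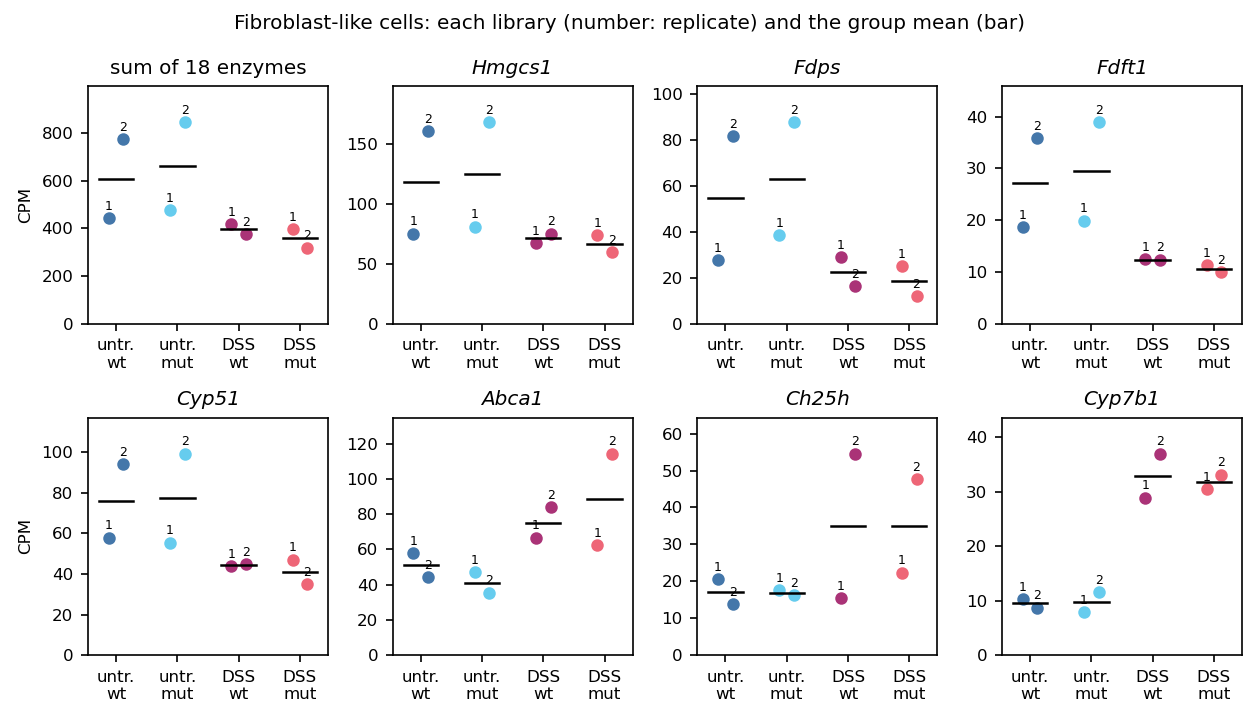
Each point is the CPM of 1 fibroblast-like library, numbered by replicate and coloured by group (untr., untreated; wt, wildtype; mut, mutant), and each bar is the mean of 2 libraries; the first panel sums the 18 enzymes. Replicate 2 of both untreated genotypes stands above replicate 1 for the enzymes, and Cyp7b1 separates treated from untreated libraries.

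Which fibroblast-like cells were present also differed after DSS. A cluster led by Clec3b and Dcn held 830, 1111, 1084 and 547 cells untreated and 36, 65, 204 and 25 after DSS. A cluster led by Igfbp5 and Serpina3n held 101, 183, 88 and 51 cells untreated and 60, 794, 316 and 646 after DSS. In the cluster led by Dcn, Lum and Dpt, which held 109 to 343 cells in every library, 4 of 28 members tested were called, where 16.7% of all genes were called. Cyp7b1 rose there too (13.1, 10.1, 2.38 and 11.8 CPM untreated, 32.5, 62.5, 33.5 and 43.2 CPM after DSS; log2 fold change 2.41 ± 0.33, edgeR adjusted p 0.000301), as did Ch25h (1.49 ± 0.34, edgeR adjusted p 0.00849). Sc5d (-0.67 ± 0.19, edgeR adjusted p 0.0295) and Cyp27a1 (-0.72 ± 0.19, edgeR adjusted p 0.0219) fell. The summed enzymes overlapped in that cluster, at 383, 579, 286 and 430 CPM untreated and 398, 297, 378 and 262 CPM after DSS. Fdps, Idi1, Fdft1, Cyp51 and Abca1 were not called there, and Stard4 was at a log2 fold change of 0.05 ± 0.24. Stress-response markers in fibroblast-like cells were at 12925 to 13936 CPM untreated and 7401 to 7769 CPM after DSS, and plasma cell markers at 873 to 1497 and 3176 to 5606 CPM; their part in these results was not tested. Of the 9 calls over all fibroblast-like cells, 1 was left when replicate 2 of the wildtype mice, untreated or treated, was dropped. Dropping replicate 2 of the untreated mutant group left 2, replicate 2 of the treated mutant group 3, replicate 1 of the treated wildtype group 4, and replicate 1 of the untreated wildtype group 5. In these 6 fits 6.64% to 17.8% of all genes were called.

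The knock-in mutation gave no called member in any population, untreated or after DSS. In untreated mice 0% of all genes were called in CD4 T cells, Th17-like cells, macrophage-like cells and fibroblast-like cells by edgeR, with 587, 427, 628 and 621 genes at an unadjusted p under 0.05 and 20, 1, 13 and 0 genes called by DESeq2. After DSS the share was again 0% in each, with 185, 165, 181 and 383 genes at an unadjusted p under 0.05 and none called by DESeq2. Of the members, 2 in untreated CD4 T cells, 1 in treated Th17-like cells and 1 in treated macrophage-like cells had an unadjusted p under 0.05, and DESeq2 called none. With 2 libraries a group an exact permutation test cannot go below a p of 0.333.

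The 3 members with the smallest p in each genotype comparison are given next, with the CPM of wildtype replicates 1 and 2 before that of mutant replicates 1 and 2, and none was called. In untreated CD4 T cells, Stard4 was at 35.3 and 39.4 against 32.2 and 28.7 CPM (log2 difference -0.30 ± 0.12, edgeR adjusted p 0.928). Mvd, the mevalonate decarboxylase, was at 7.38 and 10.4 against 6.31 and 5.88 CPM (-0.55 ± 0.24), and Scap at 18.1 and 14.7 against 13.9 and 13.3 CPM (-0.27 ± 0.17). All 3 were lower in both mutant libraries and did not pass. In treated CD4 T cells, Pmvk was at 24.5 and 21.0 against 18.3 and 17.9 CPM (-0.35), Mvd at 9.56 and 8.27 against 6.52 and 6.64 CPM (-0.46) and Tm7sf2 at 1.82 and 1.65 against 0.971 and 1.01 CPM (-0.82), each with an edgeR adjusted p of 1.

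In untreated Th17-like cells, Abca1 was at 8.56 and 1.17 against 0 and 1.32 CPM (-2.29 ± 1.16, edgeR adjusted p 0.835), so that 1 wildtype library carried the difference. Hmgcs1 was at 31.8 and 32.7 against 39.9 and 49.5 CPM (0.46 ± 0.26, edgeR adjusted p 0.868) and Insig1 at 42.8 and 43.2 against 54.3 and 58.8 CPM (0.36 ± 0.24, edgeR adjusted p 0.894). After DSS, Fdps was at 22.7 and 11.4 against 8.97 and 7.28 CPM, and the difference of -1.24 ± 0.44 did not pass (edgeR adjusted p 1). Mvk, at 8.60 and 13.3 against 16.6 and 18.7 CPM (0.75 ± 0.39), and Srebf1, at 32.6 and 30.4 against 25.1 and 20.8 CPM (-0.49 ± 0.27), followed with an edgeR adjusted p of 1.

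In untreated macrophage-like cells the nearest members were Dhcr7 (7.39 and 10.6 against 14.3 and 10.4 CPM, 0.47), Abca1 (606 and 436 against 349 and 416 CPM, -0.45) and Hsd17b7 (6.74 and 7.31 against 5.71 and 4.86 CPM, -0.40), with edgeR adjusted p of 0.873 or more. After DSS they were Mvd (15.5 and 13.9 against 9.97 and 9.67 CPM, -0.62), Hmgcs1 (63.6 and 63.8 against 47.1 and 58.6 CPM, -0.31) and Scap (19.0 and 19.9 against 15.05 and 17.3 CPM, -0.31), with edgeR adjusted p of 1. In untreated fibroblast-like cells they were Srebf1 (20.6 and 20.8 against 25.7 and 27.3 CPM, 0.30), Srebf2 (81.7 and 88.8 against 65.9 and 89.2 CPM, -0.19) and Abca1 (57.9 and 44.1 against 47.0 and 35.3 CPM, -0.35), with edgeR adjusted p of 1. After DSS they were Insig2 (32.0 and 37.4 against 26.7 and 32.4 CPM, -0.30), Dhcr7 (12.9 and 6.10 against 8.45 and 3.48 CPM, -0.59) and Abcg1 (12.4 and 15.4 against 16.6 and 19.1 CPM, 0.25), also with edgeR adjusted p of 1. Stress markers were higher in both untreated mutant than in both untreated wildtype libraries in each population. They were at 4307 to 5825 against 1636 to 2416 CPM in CD4 T cells, 3907 to 4810 against 1922 to 2695 CPM in their Th17-like cells, and 8238 to 13025 against 2495 to 3663 CPM in macrophage-like cells. In fibroblast-like cells they were at 13767 to 13936 against 12925 to 13285 CPM, and their part in the comparisons was not tested.

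The DSS effect itself was also compared between genotypes, by the difference of the log2 fold changes in mutant and wildtype mice. None of the members was called in any of the 4 populations, where 0, 1, 0 and 0 of all genes were called and 437, 329, 370 and 659 had an unadjusted p under 0.05. The members with the smallest p were Acat2, the thiolase that starts the pathway, in CD4 T cells (0.39 ± 0.24, edgeR adjusted p 0.999) and Hmgcs1 in Th17-like cells (-0.66 ± 0.36, edgeR adjusted p 0.993). In macrophage-like cells it was Mvd (-0.63 ± 0.31, edgeR adjusted p 1) and in fibroblast-like cells Srebf1 (-0.36 ± 0.24, edgeR adjusted p 0.979).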

How the data were processed

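Gene counts of 8 single-cell libraries were analysed. The deposited tables hold raw UMI counts per gene and barcode, made by the authors with Cell Ranger 3.1.0 on mm10 and with Seurat 4.0.1, per the submitters' processing notes; aligner settings are not given in the sources used here. In 7 tables the rows carry numbers, and genes were taken from the shared row order. Barcodes with at least 400 genes and at most 20% mitochondrial counts were clustered in scanpy 1.11.5 (2000 variable genes without the members, 30 components, 15 neighbours, Leiden resolution 1), separately for the 27420 cells on the authors' list and for 96721 barcodes. Thresholds for naming clusters were chosen once the clusters were known, and differences from the study may come from rebuilt names. No doublet caller was run. Counts were summed per library and population and tested with edgeR 4.0.16 (quasi-likelihood, TMM, a filter on low counts, Benjamini-Hochberg adjustment over all genes) in R 4.3.3; comparisons of cell types had the library as a block. Scripts were tested on simulated data.

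The members and lists were chosen with earlier results of these data known. The rule was to give values per library for members with an adjusted p under 0.05 and for the 3 members with the smallest p per comparison; between cell types, ranges or differences are given instead, and not for every called member; related genes are named only when called, at most 4 per comparison. Alternatives were DESeq2 1.42.0, relative log expression factors, no filter on low counts, coarser clustering, other sets of barcodes, replicate blocks and leaving out each library. The single-cluster sets and the set without the heat-shock cluster were chosen after seeing the data. Some genes are not reported here.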

Additional observations from a re-analysis of the deposited data

How the results depend on the processing

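Over 139 named results, 1919 alternative values were computed. Of these, 1676 kept direction and side of the threshold, 226 lost the call, 9 gained it and 8 reversed. The named results include differences between cell types and members never called, for which staying uncalled counts as kept. The total therefore does not measure how stable the DSS calls are. The cause of each change was not tested unless fewer genes, cells or samples enter by construction. Members called under DESeq2 were 2 in CD4 T cells for DSS in wildtype, where 197 genes were called in all. For DSS averaged they were 4 in CD4 T cells and 1 in Th17-like cells, where 11.9% and 6.82% of all genes were called. Without a filter on low counts they were 16 in fibroblast-like cells for DSS averaged, where 18.3% of all genes were called. For DSS in wildtype they were then 3 in CD4 T cells, 2 in macrophage-like cells and 10 in fibroblast-like cells. The share of all genes called in those wildtype fits is not given here. For DSS averaged, barcodes on or off the authors' list gave 9 in Th17-like cells, where 15.4% of all genes were called against 5.68% in the main fit. That setting also widened the Th17-like cells, from 3564 listed cells to 14820 barcodes. Only cells on the list gave 2 in macrophage-like and 5 in fibroblast-like cells, where 18.1% and 12.2% of all genes were called. The cluster led by Dcn, Lum and Dpt gave 4, where 16.7% of all genes were called. Leaving out each library gave 0 to 1 for DSS in wildtype in CD4 T cells and 0 to 1 in fibroblast-like cells; for DSS averaged it gave 0 to 8 in CD4 T cells, 0 to 3 in Th17-like cells, 2 to 5 in macrophage-like cells and 1 to 9 in fibroblast-like cells. Leaving out libraries gave 5 to 7, 22 to 23 and 21 to 25 for the Th17-like, macrophage-like and fibroblast-like comparisons of cell types.

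Reversed differences, none of them called in the alternative, were as follows. For mutant against wildtype untreated, Hsd17b7 in macrophage-like cells was 0.07 with only cells on the list. In fibroblast-like cells Srebf1 was -0.02 with only cells on the list and -0.06 in the Dcn, Lum and Dpt cluster, Srebf2 was 0 without untreated mutant replicate 1 (range -0.42 to 0 over single libraries left out) and 0.01 in that cluster, and Abca1 was 0.04 in that cluster. After DSS, Insig2 in fibroblast-like cells was 0.16 with only cells on the list. For DSS averaged, Stard4 was 0.05 in the Dcn, Lum and Dpt cluster.

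Animal numbers that neighbour each other across genotypes were tried as a replicate block for the mutant comparisons; the labels do not say that they mark a shared litter or day. With the replicate block 0 members were called in each population. Deviations of same-block libraries correlated across genes by 0.038 to 0.138 untreated and 0.065 to 0.321 after DSS. No paired analysis was possible for the DSS comparisons because no block holds both treatments. Differences after DSS therefore cannot be told apart from differences between these blocks. For the cell types, without the library as a block the counts were 5, 18 and 22. Calls lost were Fdps and Insig2 (Th17-like), Dhcr7, Ebp and Nr1h2 (macrophage-like, where Ch25h was not tested) and Sc5d (fibroblast-like).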

Other observations

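Levels in further clusters of all barcodes are given as means ± SD over 8 libraries, with no test between types. Pmvk was at 139 ± 54.7 CPM in dendritic cell-like cells and 81.3 ± 13.3 CPM in endothelial-like cells. Idi1 was at 99.3 ± 15.5 CPM in an unnamed cluster led by Il22 and Klrb1b, and at 64.7 ± 9.63 CPM in dendritic cell-like cells. Insig2, which retains the sterol sensor Scap in the endoplasmic reticulum, was at 61.8 ± 5.68 CPM in endothelial-like and 49.8 ± 4.55 CPM in muscle or pericyte-like cells, with overlapping libraries. Abca1 in endothelial-like cells was at 284 ± 44.8 CPM. Srebf2 was at 115 ± 23.3 CPM in B cell-like cells. Among the T cell clusters of all barcodes, listed or not, Ebp was at 77.5 ± 8.21 CPM in proliferating-like and 62.6 ± 7.35 CPM in Treg-like cells.

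Ch25h and Cyp7b1 were not limited to fibroblast-like cells. An unnamed cluster led by Plvap, Fabp4 and Flt1 held Ch25h at 26.3 ± 9.88 CPM and Cyp7b1 at 24.9 ± 15.3 CPM, and muscle or pericyte-like cells held them at 21.8 ± 16.7 and 17.4 ± 8.83 CPM.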
